A study of Mus musculus with 29 samples.

Results

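Erythroid, globin and heme synthesis genes were followed across 19 RNA-seq libraries of mouse hematopoietic stem cells (HSCs). The list held 31 gene symbols, chosen by name as erythroid regulators, globins, heme enzymes, iron carriers and red cell membrane genes, with earlier results of these data known. Of these, 30 had a row among the 55376 symbols of the count files and all 30 passed the filter on low counts, within 33690 genes tested, while Ahsp was not analysed here. The libraries fell into 4 groups by genotype (WT or Gadd45KO) and by age (young or old), with 4 libraries of young WT (YWT), 4 of old WT (OWT), 4 of young KO (YKO) and 7 of old KO (OKO). No other allele or agent is named for these libraries, their ages are given only as young and old, and all 19 carry the label F for sex, although the methods speak of both sexes. The KO is a mouse line lacking Gadd45b, a gene tied to stress responses and DNA demethylation, and the design asks how age and its loss alter HSCs. For transplants, the methods define HSCs by a lineage-negative, cKit+ Sca1+ CD34- Flk2- CD150+ gate. The lineage antibodies include Ter119, a red cell marker, and bone marrow for flow cytometry was treated to lyse red cells. The RNA-seq methods state neither a gate nor a lysis step.

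Red cells arise from HSCs through progenitors in which GATA1 and KLF1 switch on a shared program. ALAS2 performs the first and limiting step of heme synthesis in erythroid cells, further enzymes build the porphyrin ring, and ferrochelatase inserts iron that TFRC and mitoferrin bring in. Heme then joins alpha and beta globin to form hemoglobin, while anion exchanger band 3 (SLC4A1), spectrin, ankyrin and the blood group proteins shape the red cell membrane. HSCs are not red cells, and globins are known as late genes of this program, whereas Klf1, Gata1 and Car1 are on earlier, already in erythroid progenitors.

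Alpha globin is made from Hba-a1 (mm10 chromosome 11, 32283511 to 32284465, plus strand) and Hba-a2 (chromosome 11, 32296489 to 32297298, plus strand). Beta globin is made from Hbb-bs (chromosome 7, 103826534 to 103828096, minus strand) and Hbb-bt (chromosome 7, 103812524 to 103813996, minus strand). The copies of a pair are nearly the same message: over the 429 bases of the alpha coding sequence Hba-a1 and Hba-a2 differed at 1 position, and over the 444 bases of the beta coding sequence Hbb-bs and Hbb-bt also differed at 1. These windows of 60 coding bases from the GENCODE M21 transcripts (bases 322 to 381 of the alpha and 358 to 417 of the beta coding sequence) end at that position, set in capitals, and show why a read from one copy can be counted for the other.
Hba-a1: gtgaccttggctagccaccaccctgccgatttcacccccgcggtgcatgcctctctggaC
Hba-a2: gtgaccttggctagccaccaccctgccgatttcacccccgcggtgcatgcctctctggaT
Hbb-bs: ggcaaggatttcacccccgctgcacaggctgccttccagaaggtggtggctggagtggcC
Hbb-bt: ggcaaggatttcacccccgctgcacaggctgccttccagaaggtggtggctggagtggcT

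Of all 50-base stretches of their transcripts, 72.3% of those of Hba-a1 also occurred in Hba-a2 and 53.2% of those of Hbb-bs in Hbb-bt. How reads that match both copies were counted is not given in the sources used here, so single-copy values are uncertain and sums over the 4 genes stand beside them. If such reads were left uncounted, the sums lack them too. Strand use is likewise not given, and exons of Alas2 overlap genes on the opposite strand over 15.5% of their length and those of Ppox over 17.5%.

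Promoters of members that moved together are shown next, with Klf1 beside them, a regulator whose levels varied otherwise between libraries. Each is 300 bases on GRCm38.p6, from 250 bases before the RefSeq start to 50 after it, written 5′ to 3′ on the gene's strand. RefSeq starts can differ from the GENCODE M21 starts printed in this report, as they do for Hba-a1 and Hbb-bs. Capitals mark GATAA, a core that GATA1 can bind, and CACCC, a core that KLF1 can bind, on either strand. The windows are Alas2 (chrX:150547167-150547466, plus strand), Hba-a1 (chr11:32283422-32283721, plus strand), Hbb-bs (chr7:103827879-103828178, minus strand), Trim10 (chr17:36869324-36869623, plus strand) and Klf1 (chr8:84901732-84902031, plus strand).
Alas2: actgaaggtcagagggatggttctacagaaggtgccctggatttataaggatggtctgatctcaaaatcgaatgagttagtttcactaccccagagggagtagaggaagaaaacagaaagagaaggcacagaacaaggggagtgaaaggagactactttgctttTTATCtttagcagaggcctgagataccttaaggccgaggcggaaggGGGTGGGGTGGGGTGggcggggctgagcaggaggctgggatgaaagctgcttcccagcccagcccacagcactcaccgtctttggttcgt
Hba-a1: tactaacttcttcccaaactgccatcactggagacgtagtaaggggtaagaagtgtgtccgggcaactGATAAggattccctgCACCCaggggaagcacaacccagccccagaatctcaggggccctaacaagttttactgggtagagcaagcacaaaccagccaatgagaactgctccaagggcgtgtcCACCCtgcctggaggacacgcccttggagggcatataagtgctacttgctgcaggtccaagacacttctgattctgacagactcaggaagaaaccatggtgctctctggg
Hbb-bs: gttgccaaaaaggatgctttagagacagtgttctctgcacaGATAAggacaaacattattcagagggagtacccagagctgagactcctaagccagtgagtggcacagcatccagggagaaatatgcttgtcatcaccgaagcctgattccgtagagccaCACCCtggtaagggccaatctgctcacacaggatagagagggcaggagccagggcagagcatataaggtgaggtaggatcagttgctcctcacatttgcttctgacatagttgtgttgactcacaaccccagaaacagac
Trim10: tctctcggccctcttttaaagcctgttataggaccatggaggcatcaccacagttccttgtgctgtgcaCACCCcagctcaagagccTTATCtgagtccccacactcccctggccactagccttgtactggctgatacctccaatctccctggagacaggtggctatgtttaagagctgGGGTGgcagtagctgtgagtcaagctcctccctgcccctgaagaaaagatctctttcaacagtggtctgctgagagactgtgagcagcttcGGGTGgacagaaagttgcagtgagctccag
Klf1: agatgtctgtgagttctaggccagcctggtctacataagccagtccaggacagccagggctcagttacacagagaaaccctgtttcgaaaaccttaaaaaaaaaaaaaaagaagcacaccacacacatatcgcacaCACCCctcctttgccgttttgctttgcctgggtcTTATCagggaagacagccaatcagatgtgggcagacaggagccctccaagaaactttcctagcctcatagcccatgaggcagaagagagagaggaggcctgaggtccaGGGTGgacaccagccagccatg

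A RefSeq promoter was at hand for 24 members, in 29 windows. GATAA was present in 55.2% of the members' windows against 25.4% of all 32851 RefSeq promoter windows. CACCC was present in 75.9% of them against 57.5%. Both runs of letters stood together in 13 of the 29 windows (44.8%), against 12.6% of all windows, and in all 6 windows at hand for the 7 genes that were lower in OKO than in YKO. Klf1 also holds both, so the letters did not set those 6 genes apart from it. These are matches of letters, not binding sites. Members without a window were Ahsp, Ank1, Car1, Car2, Fech, Slc25a37 and Slc4a1.

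Library totals ranged from 22197555 to 77970627 counts (median 57562473), so that the lowest count of any member in any library was 19, for Trim10. Levels are given in CPM, counts scaled to a common library size with TMM factors. These factors ranged from 0.692 to 1.83, with OKO1 at the upper end and also the most genes detected (47901). Gadd45b itself was at 7.34 to 17.5 CPM in YWT, 10.1 to 15.5 in OWT, 5.14 to 14.3 in YKO and 2.84 to 6.94 in OKO. The part of the gene removed in the KO line is not given in the sources used here, so these exon counts do not check the genotype labels, and groups are named as labelled. HSC markers were present in every library (10 genes, 2320 to 4860 summed CPM). OWT1 to OWT4 and OKO4 to OKO7 form batch 2 of the study's sample list and all others batch 1, so no OWT library shares a batch with a YWT library and only OKO spans both batches. Nothing in the labels says that replicates were separate animals, so p-values measure the spread between these libraries, which may be technical.

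**Figure D1:**
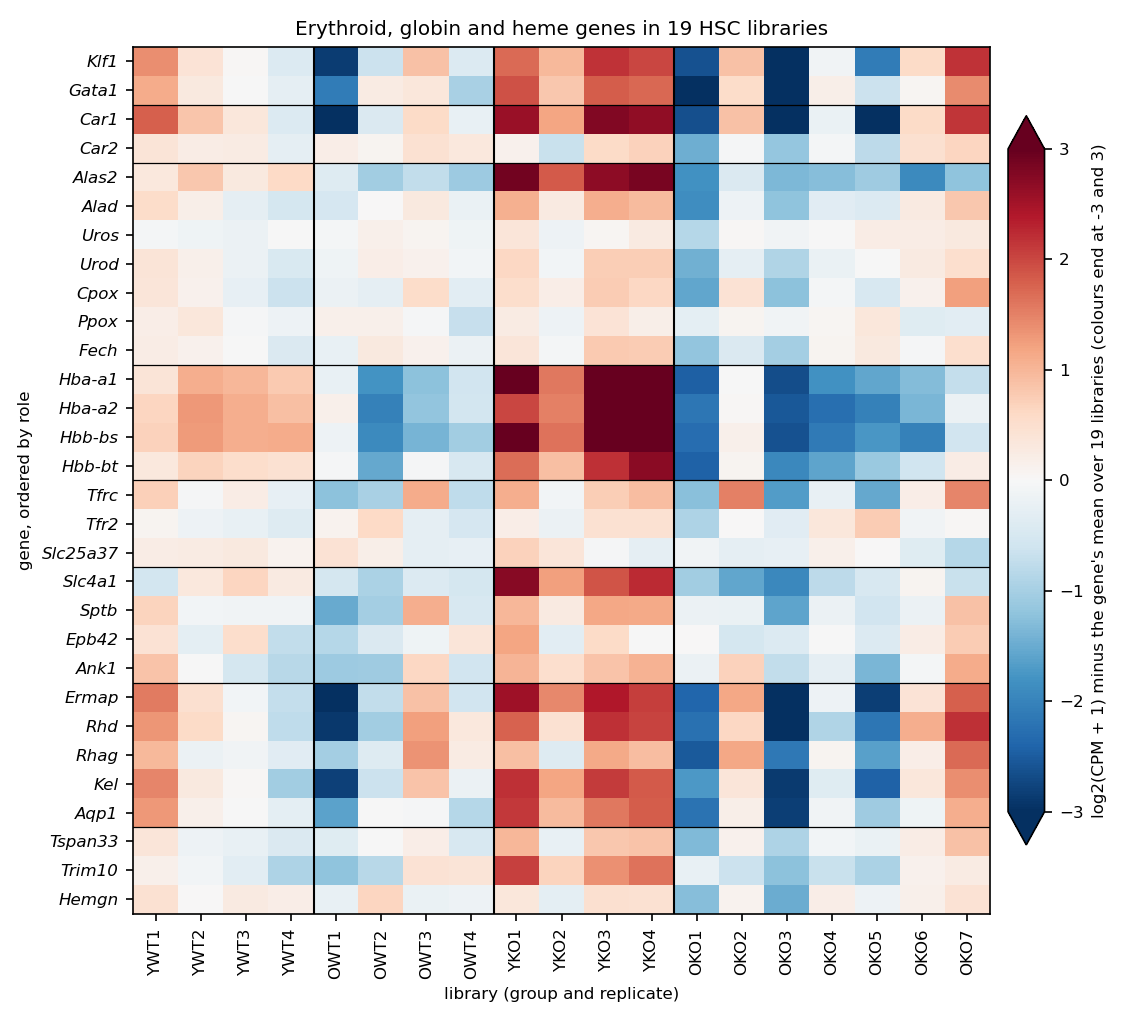
Each cell is the log2(CPM + 1) of 1 gene (rows, ordered by role) in 1 library (columns, by group), minus that gene's mean over the 19 libraries; colours end at -3 and 3. The 4 YKO columns are red for Alas2, the 4 globins, Slc4a1 and Trim10, while Klf1, Gata1, Car1 and the blood group genes are also red in YWT1 and OKO7 and blue in OWT1, OKO1, OKO3 and OKO5.

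All 4 globin genes were read in every library, at a low share of the counts. Their summed level was 185, 279.8, 251 and 235 CPM in YWT1 to YWT4. In OWT1 to OWT4 it was 118, 33.9, 65.5 and 76.9 CPM, and in YKO1 to YKO4 915, 359, 1001 and 1346 CPM. In OKO it ran from 20.2 over a median of 40.5 to 135 CPM. The groups thus ordered as YKO, YWT, then OWT and OKO, with all YKO libraries above all YWT libraries, all YWT libraries above every old library, and OWT and OKO overlapping. As a share of all counts, globins made up 0.0343 to 0.126% in YKO and 0.00285 to 0.0167% in OKO. In bulk RNA, fewer cells that express a gene and less of its RNA per cell cannot be told apart.

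Hba-a1, an alpha globin gene, was at 50.3, 82.5, 76.9 and 66.3 CPM in YWT1 to YWT4 and at 32.7, 10.4, 15.7 and 25.4 CPM in OWT1 to OWT4. YKO1 to YKO4 held 329.9, 116, 323 and 409 CPM of it, and OKO 5.24 to 38.3 with a median of 12.45 CPM. Every YKO library was above every other library for this gene. Hba-a2, its partner copy, was at 25.5, 40.8, 35.15 and 30.6 CPM in YWT, 17.7, 3.18, 6.47 and 10.5 in OWT, 67.2, 47.45, 136 and 208 in YKO, and 1.91 to 16.4 (median 3.19) in OKO. Again YKO lay above YWT and YWT above both old groups, without overlap.

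Hbb-bs, an adult beta globin gene, was at 74.7, 112, 98.8 and 101 CPM in YWT1 to YWT4 and at 40.9, 11.5, 16.7 and 21.6 CPM in OWT1 to OWT4. In YKO1 to YKO4 it was at 427.5, 143, 413 and 544 CPM, and in OKO at 6.585 to 50.8 with a median of 10.5 CPM. Hbb-bt was at 34.3, 44.4, 39.9 and 37.7 CPM in YWT, 26.7, 8.85, 26.6 and 19.35 in OWT, 90.3, 52.1, 129 and 186 in YKO, and 4.33 to 32.02 (median 12.1) in OKO. The order of the groups was that of alpha globin, with a smaller distance between them for Hbb-bt.

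Alas2 (chromosome X, 150547375 to 150570638, plus strand), the erythroid enzyme of the first heme step, was at 7.37, 10.8, 7.24 and 9.12 CPM in YWT1 to YWT4. It was at 4.12, 2.25, 3.03 and 2.16 CPM in OWT1 to OWT4 and at 48.7, 22.9, 41.7 and 47.3 CPM in YKO1 to YKO4. In OKO it ran from 0.783 over 1.76 to 3.94 CPM. No YKO library overlapped YWT, and no young library overlapped an old one.

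Slc4a1 (chromosome 11, 102348824 to 102366203, minus strand), the band 3 anion exchanger of the red cell membrane, was at 3.10, 6.39, 8.355 and 6.2 CPM in YWT and at 3.17, 2.10, 3.475 and 3.12 CPM in OWT. YKO1 to YKO4 held 38.8, 12.95, 21.0 and 27.4 CPM, and OKO 0.573 to 5.27 with a median of 2.46 CPM. Trim10 (chromosome 17, 36869574 to 36877833, plus strand), a ubiquitin ligase family gene linked to terminal erythroid differentiation, was at 2.39, 1.88, 1.47 and 0.618 CPM in YWT, 0.325, 0.730, 3.16 and 2.98 in OWT, 11.7, 3.82, 6.92 and 8.47 in YKO, and 0.294 to 2.61 (median 0.967) in OKO. Both genes were higher in every YKO library than in any other library, and unlike globins and Alas2 both overlapped between YWT and OWT.

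**Figure D2:**
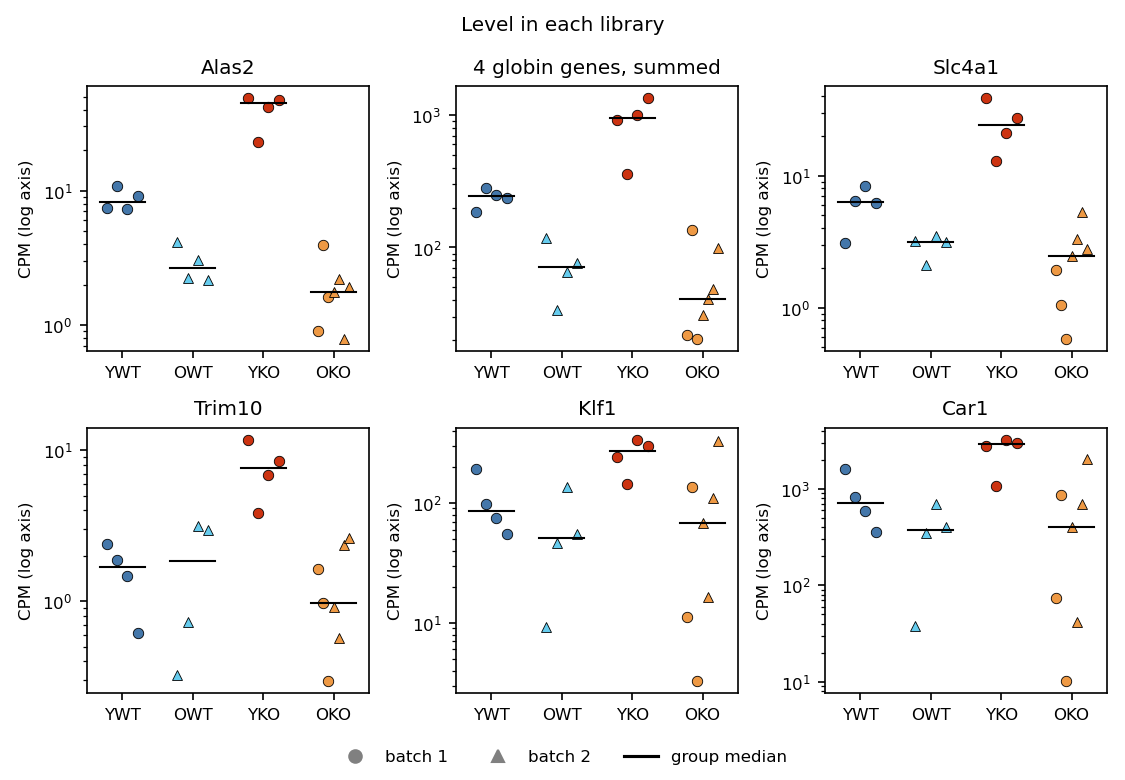
Level of Alas2, the summed globins, Slc4a1, Trim10, Klf1 and Car1 in each library (CPM, log axes), by group; circles are batch 1, triangles batch 2 and bars group medians. The 4 YKO libraries lie above all others in the first 4 panels (Alas2 at 22.9 CPM or more against 10.8 or less), while for Klf1 and Car1 OKO7 reaches the YKO range.

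In YKO vs YWT, the comparison of genotype in young mice, all within batch 1, Alas2 rose and no other member was called by edgeR. Its log2 fold change was 2.22 (SE 0.39, edgeR quasi-likelihood test, adjusted p = 0.0430), or 4.65-fold. A call needed an adjusted p under 0.05 and a fold over 1.5, and 0.0208% of all tested genes were called higher. Values for the others near it were 2.28 for Trim10 (SE 0.68), 2.09 for Hba-a1 (SE 0.51), 2.06 for Slc4a1 (SE 0.49), 1.98 for Hbb-bs (SE 0.55), 1.80 for Hba-a2 (SE 0.63) and 1.55 for Hbb-bt (SE 0.51), none of which passed. These 6 and Alas2 were the 7 members with all YKO libraries above all YWT libraries, a pattern that 2.12% of all tested genes showed. All 30 members had a positive log2 fold change, against 16198 of 33690 tested genes, with a median of 0.88 against -0.02. DESeq2 called Alas2, Hba-a1, Slc4a1 and Trim10 higher, among 136 genes called in all. With batch as a covariate edgeR called Alas2 and Slc4a1 higher, among 34 genes, and with library totals alone it called no member. The edgeR call of Alas2 lay near the threshold. It was lost without any 1 of YWT1 to YWT4, YKO1, YKO3, YKO4, OWT3 or OWT4, and OWT is not part of this comparison. Over the edgeR and DESeq2 alternatives tried, the adjusted p of Alas2 ranged from 3.32e-06 to 0.172. Its log2 fold change stayed between 2.08 and 2.41.

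In OKO vs YKO, the comparison of age within the KO, 7 members fell and none rose. Alas2 fell by 4.42 on the log2 scale (SE 0.35, edgeR adjusted p = 3.79e-07), a 21.4-fold lower level in OKO. Hbb-bs fell by 4.37 (SE 0.49, edgeR adjusted p = 4.07e-05), Hba-a1 by 4.22 (SE 0.45, edgeR adjusted p = 4.07e-05), Hba-a2 by 4.11 (SE 0.55, edgeR adjusted p = 0.000477) and Hbb-bt by 2.86 (SE 0.43, edgeR adjusted p = 0.00147). Slc4a1 fell by 3.34 (SE 0.42, edgeR adjusted p = 0.000185) and Trim10 by 2.53 (SE 0.56, edgeR adjusted p = 0.0265). These 7 of 30 members (23.3%) stand beside 0.692% of all tested genes that were called lower. The same 7 had every OKO library below every YKO library, as did 1.48% of all tested genes. The globins among the 7 are pairs of near-identical copies, and with each pair's counts summed 5 members were called, among 429 genes. The list was also chosen with earlier results of these data known, so these shares are a description. All 30 members had a negative log2 fold change, against 12882 of 33690 tested genes, with a median of -1.13 against 0.235 for all genes.

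Members of other roles that were not called had log2 fold changes of -0.14 for Uros to -2.09 for Car1 in OKO vs YKO. Aqp1, the aquaporin water channel of the red cell, came closest at -1.93 (SE 0.51, edgeR adjusted p = 0.0619). Among the 7 heme enzymes only Alas2 was called: Alad, Urod, Fech, Cpox, Ppox and Uros were at -1.08, -0.72, -0.64, -0.50, -0.25 and -0.14. The iron genes Tfrc (transferrin receptor), Tfr2 and Slc25a37 (mitoferrin) were at -0.43, -0.21 and -0.46. Without OKO7, the library highest in Klf1 among OKO, 12 members were called lower, with Alad, Aqp1, Car1, Gata1 and Kel added to the 7, among 1822 genes called in either direction.

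OKO vs YKO mixes batches, since 3 OKO libraries belong to batch 1 with YKO and 4 to batch 2. With only the OKO libraries of batch 1 kept, 14 members were lower: the same 7 and Alad, Aqp1, Fech, Gata1, Kel, Tspan33 and Urod, while 11.6% of all tested genes were called lower in that fit. Alas2 fell by 4.16 there (SE 0.45, edgeR adjusted p = 0.000108) and Hbb-bs by 4.07 (SE 0.66, edgeR adjusted p = 0.00206). The 3 OKO libraries of that fit, OKO1, OKO2 and OKO3, had main-fit TMM factors of 1.83, 1.24 and 1.41, the highest of the 19 libraries. The median log2 fold change of all genes in that fit was 0.541. With only the OKO libraries of batch 2 kept, which leaves batch and age together, the 4 globins, Alas2 and Slc4a1 were called lower and Trim10 was not, among 244 genes called in either direction.

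Markers of other blood cells moved with some of these groups. In OKO vs YKO all 8 B cell markers had negative log2 fold changes and Cd22, Ebf1, Ms4a1 and Pax5 were among those called lower, and all 6 T cell markers had negative values with 2 called lower (Cd2 and Cd3e). In YKO vs YWT all 8 B cell and all 6 T cell markers had positive values and 0 were called by edgeR, with 2 and 5 of them at an unadjusted p under 0.05. Summed B cell markers stood at 796, 1470, 242 and 192 CPM in YKO1 to YKO4, 213 to 647 in YWT, 65.4 to 212 in OWT and 27.6 to 202 in OKO, and no B cell marker was at 0 in any library. The 2 YKO libraries with the most globins, YKO3 and YKO4, were lowest of YKO in B cell markers. YKO1, at 796 CPM of B cell markers, held 915 CPM of globins, near YKO3 at 1001, and YKO2, at 1470, held 359. An alternative without YKO1 and YKO2 was added after seeing the data and rests on YKO3 and YKO4 alone for YKO. That alternative keeps the 2 YKO libraries with the most globins, which favours a large globin difference. No conclusion about B cells is therefore drawn from it. In it 6 members remained called lower in OKO vs YKO (Trim10 was lost), among 21 genes called in either direction, with Alas2 at -4.55 and Hbb-bs at -4.67 on the log2 scale, and in YKO vs YWT Alas2 was at 2.34 (edgeR adjusted p = 0.130). Of the HSC markers, 9 of 10 were negative in YKO vs YWT (median -0.49), 9 of 10 were positive in OKO vs YKO (median 0.49), 10 of 10 were positive in OWT vs YWT (median 0.48) and 10 of 10 were negative in OKO vs OWT (median -0.39). By edgeR 0 of them were called in each, with 2, 4, 2 and 1 at an unadjusted p under 0.05, as were 1548, 5330, 1476 and 2741 of 33690 tested genes. Of 4 genes listed as low in this HSC gate (Flt3, Cd34, Il7r and Cd48) 0 were called, with 2 positive and 2 negative in OKO vs YKO. Their summed level was 129 to 152 CPM in YKO and 87.4 to 341 in OKO. Cd48 was at 19.4 to 46.9 CPM in YKO, 0.310 in OKO3, 1.17 in OKO1, 2.72 in OWT1 and 35.9 in OKO7. Cd34 reached 304 CPM in OKO5. Megakaryocyte markers ranged from 752 to 1460 summed CPM in YKO and from 634 to 2160 in OKO, with 0 of 8 called. Granulocyte markers were at 605 to 895 in OWT, 210 to 402 in YWT, 50.3 to 290 in YKO and 202 to 605 in OKO, with Prtn3 alone called, higher in OKO than in YKO. The part of these cells in the erythroid values was not tested.

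**Figure D3:**
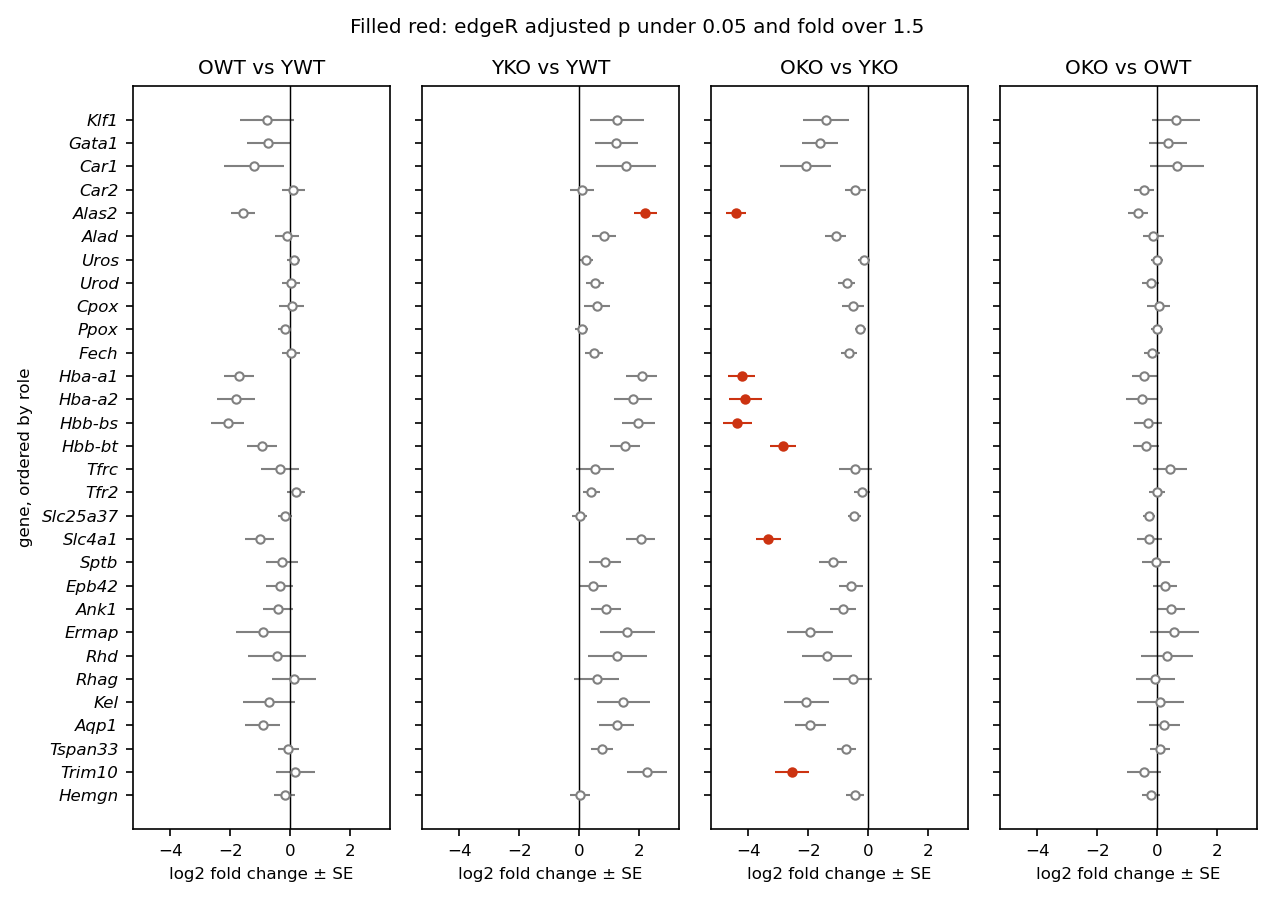
Log2 fold change with its standard error for the 30 members (rows) in the 4 comparisons, 1 a panel; filled red points passed an edgeR adjusted p of 0.05 and a fold of 1.5. Only Alas2 is filled in YKO vs YWT and 7 genes in OKO vs YKO, from -2.53 for Trim10 to -4.42 for Alas2.

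In OWT vs YWT, the comparison of age in WT, 0 of 30 members were called by edgeR, with 5 at an unadjusted p under 0.05 and 3 lower by DESeq2 (Alas2, Hba-a1 and Hbb-bs), which called 135 genes in all. Of all tested genes 0.00297% were called by edgeR, and 1476 of 33690 were at an unadjusted p under 0.05. The log2 fold changes were -2.09 for Hbb-bs (SE 0.56, edgeR adjusted p = 0.374), -1.80 for Hba-a2 (SE 0.63), -1.71 for Hba-a1 (SE 0.50), -1.58 for Alas2 (SE 0.39, edgeR adjusted p = 0.298) and -0.94 for Hbb-bt (SE 0.50). These 5 members had every OWT library below every YWT library, as did 1.9% of all tested genes. No batch holds both groups, but with batch as a covariate, which takes the batch difference from OKO alone, 0 members were again called, all 30 had a negative value and their median was -1.07 against 0.187 for all genes. In that fit Slc4a1 was at -2.58 (SE 0.58, edgeR adjusted p = 0.110), Hbb-bs at -1.62 (SE 0.79, edgeR adjusted p = 0.304) and Alas2 at -1.21 (SE 0.56, edgeR adjusted p = 0.284), and 21 of all tested genes were called.

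In OKO vs OWT, the comparison of genotype in old mice, 0 of 30 members were called by edgeR or DESeq2 and 0 had an unadjusted p under 0.05, where 0.0327% of all tested genes were called by edgeR. Alas2 was at -0.62 (SE 0.33) and the 4 globins were at -0.30 to -0.52, with SEs of 0.43 to 0.54. No member separated the groups, against 0.819% of all tested genes. Within batch 2, with OKO4 to OKO7 only, again 0 members were called while 0.0801% of all tested genes were, and Alas2 was at -0.77 (SE 0.32).

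The genotype by age interaction asks whether the change with age differed between KO and WT. It was called for 0 members and 0% of all tested genes by edgeR, with 7 members at an unadjusted p under 0.05, as were 1556 of 33690 tested genes. Alas2 had the most negative estimate, -2.84 (SE 0.51, unadjusted p = 1.26e-05, edgeR adjusted p = 0.423), and the globins ran from -1.92 to -2.51. All 30 members had a negative estimate, with a median of -0.81 against 0.184 for all genes. By the main edgeR test the change of these genes with age was not shown to differ between KO and WT, whereas DESeq2 called Alas2, among 7 genes in all. No batch holds both OWT and YWT, so a batch difference enters this estimate. With OKO of batch 1 alone edgeR called Alas2 and Slc4a1, among 163 genes, and with batch as a covariate it called 0 genes.

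Per kilobase of exon, which allows genes to be compared, Car1 was the most abundant of the genes described singly in YKO at 2022 ± 786 CPM per kb (SD, n = 4), and Car2 followed at 701 ± 259.5. Both encode cytosolic carbonic anhydrases, and Car1 is known as an early erythroid gene. Hbb-bs was at 497 ± 221, Hba-a1 at 362.5 ± 154, Hba-a2 at 172 ± 109, Klf1 at 167 ± 54.0, Hbb-bt at 162 ± 81.1 and Gata1 at 84.9 ± 25.0 CPM per kb. Alas2 at 16.7 ± 4.94, Slc4a1 at 5.12 ± 2.23 and Trim10 at 3.44 ± 1.46 CPM per kb were lowest. Neighbours in this order differed by less than the larger of their SDs, except for Car1 and Car2, Hba-a1 and Hba-a2, Gata1 and Alas2, and Alas2 and Slc4a1. In YWT the beta globin Hbb-bs was at 126 ± 20.5 and Car2 at 654.5 ± 122 CPM per kb.

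A second set of members varied widely between libraries of the same group. Klf1 (chromosome 8, 84901928 to 84905291, plus strand), the erythroid Krüppel-like factor, was at 193, 97.3, 74.6 and 55.2 CPM in YWT1 to YWT4 and at 9.325, 46.7, 136 and 54.7 CPM in OWT1 to OWT4. It was at 241, 145, 335 and 299 CPM in YKO1 to YKO4, and from 3.25 in OKO3 over a median of 68.4 to 332 CPM in OKO7. Within OKO the highest library thus held 102 times the lowest, where for Alas2 the ratio was 5.04. Klf1 was at 1.28 in YKO vs YWT (SE 0.90) and at -1.40 in OKO vs YKO (SE 0.77) on the log2 scale, and passed in neither.

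Gata1 (chromosome X, 7959260 to 7978071, minus strand), the master regulator of erythroid and megakaryocyte genes, was at 146, 81.9, 66.3 and 55.1 CPM in YWT, at 14.8, 79.2, 84.2 and 33.5 in OWT, at 251, 118, 238 and 222 in YKO and at 5.27 to 179 (median 69.0) in OKO. Car1 (chromosome 3, 14766216 to 14808368, minus strand) was at 1630, 829.6, 595.5 and 355 CPM in YWT, at 38.1, 347.5, 696 and 403 in OWT, at 2825, 1071, 3218 and 2979 in YKO and at 10.1 to 2061 (median 407) in OKO. Its highest library held 320 times its lowest. Klf1, Gata1 and Car1 overlapped between the groups of every comparison.

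Car2 behaved otherwise, with 1858, 1639, 1679 and 1164 CPM in YWT, 1616, 1503, 1949 and 1772 in OWT, 1536, 882, 2104 and 2270 in YKO and 513 to 2221 (median 1346) in OKO. Its range over all libraries was 4.42-fold and it was called in no comparison.

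The 4 libraries lowest in Klf1 were OKO3, OWT1, OKO1 and OKO5. Aqp1, Car1, Ermap, Kel, Rhag, Rhd and Tfrc had the same 4 lowest libraries, which with Klf1 itself makes 8 of 30 members, against 0.552% of all tested genes. At least 3 of these 4 libraries were among the 4 lowest for 15 of 30 members, Alad, Car2, Cpox, Gata1, Hemgn, Sptb and Trim10 added, against 4.31% of all tested genes. This comparison was chosen after the values were seen and is a description. Ermap, Rhd, Rhag and Kel encode blood group proteins or their partners: Ermap ranged from 3.69 to 361 CPM over the libraries, Rhd from 0.806 to 115, Rhag from 2.34 to 61.0 and Kel from 0.589 to 52.6. Aqp1 ranged from 18.6 to 604 and Tfrc from 13.6 to 131 CPM.

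OKO7 shows how far this set and the globins can part. It held 332 CPM of Klf1, 179 of Gata1 and 2061 of Car1, each within the YKO range, but 99.55 CPM of summed globins, 1.91 of Alas2, 2.77 of Slc4a1 and 2.61 of Trim10, each below every YKO library. OWT1 was the reverse within its group, with the lowest Klf1 at 9.325 CPM and the highest summed globins at 118 CPM. YWT1 had the highest Klf1 of YWT at 193 CPM and the lowest globins at 185 CPM. In YKO the lowest library was YKO2 for Klf1, Gata1, Car1, Alas2 and the summed globins alike.

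**Figure D4:**
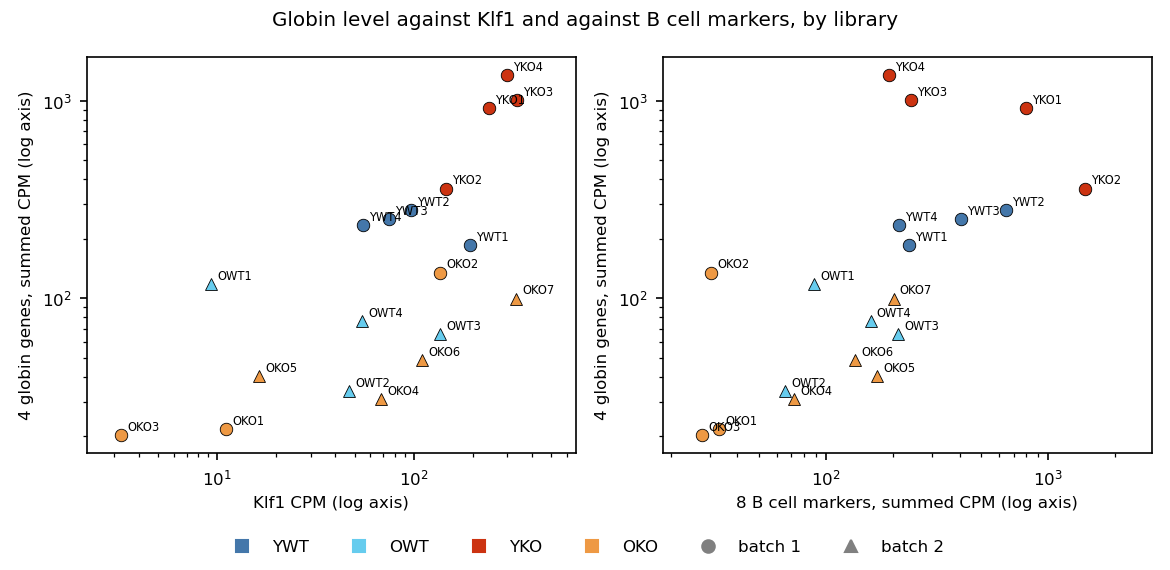
Summed level of the 4 globin genes (CPM, log axis) in each library against Klf1 (left) and against 8 summed B cell markers (right); colours are groups, circles batch 1 and triangles batch 2. At a Klf1 level near 330 CPM, YKO3 held 1001 CPM of globins and OKO7 99.55, and on the right YKO3 and YKO4 hold the highest globins at 242 and 192 CPM of B cell markers, within or below the YWT range. YKO1 and YKO2, at 796 and 1470 CPM of B cell markers, hold 915 and 359 CPM of globins.

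The other members spread less. The heme enzymes after ALAS2 are used in every cell and ranged by at most 7.96-fold (Alad) over the 19 libraries: Alad ranged from 33.4 to 266 CPM, Urod from 44.7 to 205, Cpox from 34.2 to 240.1, Fech from 43.3 to 173, Ppox from 42.9 to 94.2 and Uros from 15.1 to 36.3. For iron uptake, Tfr2 ranged from 124 to 405 CPM and Slc25a37 from 12.7 to 39.1. Of the membrane skeleton, Sptb (beta spectrin) ranged from 1.84 to 17.9 CPM, Ank1 (ankyrin) from 4.24 to 28.5 and Epb42 (protein 4.2) from 1.58 to 9.64. Tspan33 ranged from 15.9 to 83.2 and Hemgn (hemogen) from 11.6 to 54.1 CPM. For each of these genes the groups overlapped in all 4 comparisons.

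Alpha globin was counted less often than beta globin in all 19 libraries. Alpha counts per beta count were 0.696 to 0.808 in YWT, 0.512 to 0.877 in OWT, 0.767 to 0.848 in YKO and 0.547 to 0.729 in OKO. Every YKO library thus lay above every OKO library in this ratio, which was not tested, while the other pairs of groups compared overlapped. Hba-a1 counts per Hba-a2 count had medians of 2.09 in YWT, 2.42 in OWT, 2.40 in YKO and 2.68 in OKO, with overlapping ranges. Counts of Hbb-bs per Hbb-bt were 2.18 to 2.67 in YWT and 2.75 to 4.73 in YKO, but 0.629 to 1.53 in OWT and 0.594 to 1.97 in OKO. For this ratio all young libraries lay above all old ones, also within batch 1, where OKO1, OKO2 and OKO3 had 1.97, 1.74 and 1.02. The ratio rests on how reads were divided between near-identical copies and was not tested.

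**Figure D5:**
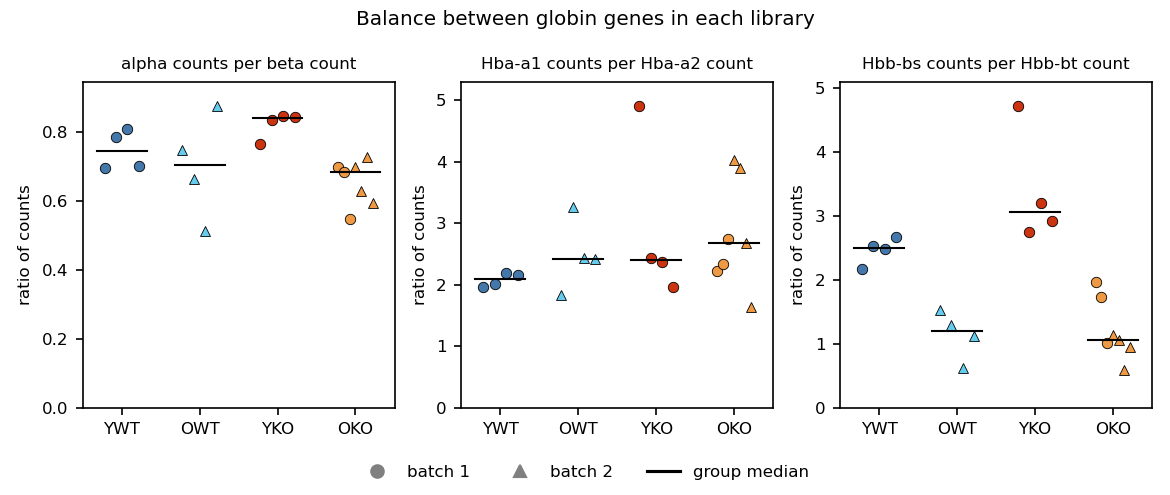
Ratios of counts in each library by group: alpha to beta globin, Hba-a1 to Hba-a2 and Hbb-bs to Hbb-bt; circles are batch 1, triangles batch 2 and bars group medians. Alpha per beta is 0.767 or more in each YKO and 0.729 or less in each OKO library, the second ratio overlaps between groups, and Hbb-bs per Hbb-bt is 2.18 or more in each young library and 1.97 or less in each old one.

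Of 67 further genes of the pathway, listed by their known roles, 64 could be tested. In OKO vs YKO 2 were called, both lower, and in the other comparisons and the interaction 0 were called by edgeR. Gfi1b, a repressor that acts with GATA1 in erythroid and megakaryocyte cells, fell by 1.19 on the log2 scale (SE 0.29, edgeR adjusted p = 0.0400), and Trim58, a ubiquitin ligase of late erythroblasts, by 1.27 (SE 0.31, edgeR adjusted p = 0.0403). Gfi1b was at 192 to 343 CPM in YKO and at 52.4 to 177 in OKO. By list, 1 of 13 transcription genes, 0 of 25 heme and iron genes, 0 of 3 other globins and 1 of 23 membrane and maturation genes were called lower, and the lists' medians were -0.14, -0.49, 0.01 and -0.44. In a fit that kept OKO4 to OKO7 and left out OKO1 to OKO3, 0 pathway genes were called, and likewise 0 without any 1 of YKO1, YKO3, YKO4 or OKO3, but 10 without OKO7, among 1822 genes called. The count of pathway genes at an unadjusted p under 0.05 was 23 in OKO vs YKO, 2 in OWT vs YWT, 3 in YKO vs YWT, 5 in OKO vs OWT and 4 for the interaction, of 64 tested. In the same order, 5330, 1476, 1548, 2741 and 1556 of all 33690 tested genes were under it. By DESeq2 9, 0, 0, 1 and 0 pathway genes were called, beside 2122, 135, 136, 73 and 7 of all genes.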

How the data were processed

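Total RNA of HSCs was made into SMART-Seq v4 libraries. The authors trimmed reads with Trim Galore 0.4.3 and cutadapt, aligned them to mm10 with STAR (GENCODE M22), counted them per gene with featureCounts and deposited each library as 1 file of raw counts. Strand, multimapping and pair settings are not given in the sources used here. Methylation libraries were not analysed here.

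From the counts, genes were filtered with filterByExpr and scaled by TMM, and 1 edgeR 4.0.16 quasi-likelihood fit (R 4.3.3, limma 3.58.1) over all 19 libraries with 1 mean per group gave all comparisons, with Benjamini-Hochberg adjustment over 33690 genes. Calls needed an adjusted p under 0.05 and a fold over 1.5, and the interaction only the adjusted p. Standard errors come from the F statistic. DESeq2 1.42.0, which the study's methods name with the same thresholds beside a linked script for pairwise removal of unwanted variation that was not used here, was run as an alternative with other scalings, filters, batches, a replicate block and each library left out. The procedure was tested on simulated data. Exon positions and lengths are from GENCODE M21 on mm10.

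Depth was 22197555 to 77970627 counts per library. All members are named, and up to 4 called pathway genes per list. Members called and 9 set genes have each library's value in YWT, OWT and YKO, and a range and median in OKO. The members and lists were chosen with earlier results of these data known.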

Additional observations from a re-analysis of the deposited data

Results flagged for a closer look

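In 8 of 120 groups of a member's levels, 1 library lay far from the rest, where chance alone would mark about 6. OKO7 stood above the other OKO libraries for Klf1 (332 CPM, next 136), Car1 (2060 CPM, next 857) and Sptb (14.6 CPM, next 6.57). OWT3 stood above the other OWT libraries for Cpox (151 CPM, next 90.1) and Tfrc (100 CPM, next 26.3). YWT1 was highest of YWT for Sptb (12.5 CPM, next 7.02) and Rhag (36.6 CPM, next 16.8), and OWT2 highest of OWT for Hemgn (54.1 CPM, next 30.5). None of the globin genes, Alas2, Slc4a1 or Trim10 had such a library in any group.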

How the results depend on the processing

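Alas2, Hba-a1, Hba-a2, Hbb-bs, Hbb-bt and Slc4a1 stayed lower in OKO than in YKO in all alternatives that tested them, and no log2 fold change of a called member turned its sign. In 1 alternative the counts of each globin pair were summed, so Hba-a2 and Hbb-bt were not tested alone. It called 5 members, all lower: Alas2, the summed alpha and the summed beta globins, Slc4a1 and Trim10. Trim10 was lost without YKO1, YKO3, YKO4 or OKO4, with OKO of batch 2 alone and without both YKO1 and YKO2. In OKO vs YKO, 14 members were called with batch as a covariate or with OKO of batch 1 alone, 11 with a replicate block, and 6 to 12 with 1 library left out. Calls over all genes rose as well, from 434 in the main fit to 6420 with batch as a covariate, 6285 with OKO of batch 1 alone and 1774 with the block. The replicate numbers did not pair the libraries (correlations of same-numbered deviations from -0.45 to 0.277, over 0.1 in 1 of 4 pairs at most), so the block is given only here. In YKO vs YWT the members called were 4 with DESeq2, 3 with OKO of batch 2 alone, 2 within the compared groups, with batch as a covariate or with OKO of batch 1 alone, 0 with library totals alone and without YKO1 and YKO2, and 0 to 1 with 1 library left out. In those settings from DESeq2 to OKO of batch 1 alone, 136, 34, 33, 34 and 45 of all genes were called, against 9 in the main fit. In OWT vs YWT the members called were 3 with DESeq2, among 135 genes, and 1 within the compared groups, among 41. In OKO vs OWT 1 member (Fech, lower) was called with OKO of batch 1 alone, among 4350 genes called in all. The interaction was called for 1 member with DESeq2, among 7 genes, 2 with OKO of batch 1 alone, among 163, and 0 to 1 with 1 library left out. Pathway genes called in OKO vs YKO were 32 with batch as a covariate, 28 with OKO of batch 1 alone, 11 with the replicate block, 9 with DESeq2, 7 at a mean CPM of at least 5 (2 of them higher), 6 with upper-quartile scaling, 0 within the compared groups, with OKO of batch 2 alone or without YKO1 and YKO2, and 0 to 10 with 1 library left out. Over all genes, DESeq2, a mean CPM of at least 5 and upper-quartile scaling called 2122, 1496 and 1078 in that comparison. In OKO vs OWT the pathway genes called were 17 with OKO of batch 1 alone, among 4350 genes, and 1 with DESeq2, among 73. For the interaction 1 was called with OKO of batch 1 alone, among 163 genes. The causes were not tested. The median log2 fold change of all genes in OKO vs YKO was 0.235 by TMM, 0.435 by upper quartile and 0.627 by library totals. Members at a few CPM, such as Trim10 with 19 counts in 1 library, carry the larger counting error.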

Other observations

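The embryonic globin genes, which are silent in adult red cells, were read at low counts. The highest counts were 22 for Hba-x (OKO6), 38 for Hbb-y (YKO2) and 37 for Hbb-bh1 (YKO2), and each was at 0 in some libraries, so no fold is given for them. Epor, the erythropoietin receptor, was at 85.1, 49.8, 101 and 85.7 CPM in YKO1 to YKO4 and at 6.38 in OKO3 and 67.3 in OKO7, the lowest and the highest of OKO. Its log2 fold change in OKO vs YKO was -1.31 (SE 0.45, edgeR adjusted p = 0.147), and it was not called.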
